A study of Drosophila melanogaster with 4 samples.

Results

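The regions described here are the H2Av clusters along the X chromosome of Drosophila melanogaster, called from chromatin of adult heads. A cluster is a stretch that the authors listed as significantly enriched in chromatin immunoprecipitation and sequencing (ChIP-seq). Every listed cluster on X with a start at or below 20422827 (FlyBase release 5) was taken, which leaves out the 2 Mb at the centromere end of the assembled arm. There were 1041 of the 6778 clusters in replicate 1, 1019 of 6672 in replicate 2 and 1194 of 7576 in the authors' combined list for the replicate set. The cut removed 86, 61 and 102 further clusters of X from these lists. No cluster crossed it.

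The flies were of the wild-type strain Oregon-R (Oregon-R-modENCODE), labelled as mixed adults, grown in population cages, and their heads were separated on sieves. The 2 ChIP libraries were made with the antibody 9751, directed at H2Av, and each had its own input. No group was treated and none carried another genotype, so the comparisons are between arms and between the 2 ChIP replicates. The labels give neither the sex nor the age of the flies, and they do not tell whether the replicates came from separate populations. The spread given here may therefore be technical. A head holds neurons, glia, photoreceptors, fat body and muscle together. The lists hold no expression values, so the head origin could not be checked against marker genes.

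H2Av is the only H2A variant of Drosophila and combines roles that H2A.Z and H2A.X share out in other animals. In the fly it is known from nucleosomes just after the start sites of transcribed genes, from developmental silencing and from the response to DNA breaks, where its tail is phosphorylated. The X is the chromosome that females carry in a pair and males singly, and in males the dosage compensation complex raises its transcription. That is why the X is often set beside the autosomes in studies of fly chromatin. The reference here was the same cut of arms 2L, 3L and 3R, pooled over 69.5 Mb and also taken one by one. Genes at these positions are not named: the annotation given was of release 6, and its positions cannot be set against those of release 5.

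Clusters lay on the kept 20.4 Mb of X about as densely as on the reference arms, but their coverage differed between replicates. They covered 5.45 Mb in replicate 1 and 4.54 Mb in replicate 2, which is 26.7% and 22.3% of the length (24.5 ± 3.15%, SD, n = 2). The reference arms were covered to 22.5% and 23.1%. The ratio of X to reference was therefore 1.19 in replicate 1 and 0.963 in replicate 2, a mean of 1.07 ± 0.157. In replicate 1 X was covered more than each of 2L (20.9%), 3L (22.7%) and 3R (23.6%). In replicate 2 it lay above 2L (21.2%) and below 3L (22.9%) and 3R (24.9%). The number of clusters per Mb on X was 51.0 and 49.9, against 47.3 and 49.8 on the reference arms, a ratio of 1.04 ± 0.0537. An exact two-sided sign-flip permutation over 2 replicates cannot give a p below 0.5. None of the differences from the reference arms described here can therefore pass a test, and they are read against the spread of the 2 lists. The lists hold no read counts, so depth is unknown.

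Cluster width on X was close to that elsewhere in the middle of its range and differed between replicates at the broad end. The median width was 3250 bp in replicate 1 and 3103 bp in replicate 2 (3176.5 ± 104 bp), against 3189 bp and 3124 bp on the reference arms. The difference from the reference arms was 61 bp in one list and -21 bp in the other, which is within the spread of the replicates (20 ± 58.0 bp). Narrow clusters of up to 2000 bp made up 29.3% of X clusters in replicate 1 and 27.4% in replicate 2, near the 28.6% and 27.3% of all clusters in the same lists. Broad clusters over 10 kb numbered 128 in replicate 1 and 81 in replicate 2. They were 12.3% and 7.95% of X clusters, where all clusters of the lists gave 11.1% and 9.74%. They held 40.4% of the cluster length on X in replicate 1 and 27.0% in replicate 2, against 33.6% and 31.7% on the reference arms. The widest cluster of X spanned 43.4 kb in replicate 1.

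The spacing of X clusters was uneven, as it was on the other arms. The median gap to the next cluster was 3074.5 bp in replicate 1 and 3434 bp in replicate 2 (3254 ± 254 bp), and on the reference arms it was 3091 bp and 2893.5 bp. The difference was -16.5 bp and 540.5 bp, so its direction rests on the replicate read. In replicate 1, 23.6% of gaps on X were under 1 kb, and in replicate 2 the share was 24.5%. The pooled reference arms had 25.3% and 27.5%. By arm, 2L had 23.0% in replicate 1, which is below X, and 26.4% in replicate 2. Such short gaps were thus rarer on X than on every reference arm in replicate 2 alone. At the other end 78 and 84 gaps exceeded 50 kb, which is 7.5% and 8.26% of gaps, against 8.12% and 8.14% on the reference arms. On X they took up 42.1% and 48.1% of the kept length. The pooled reference arms had 48.1% of their length in such gaps in both lists. By arm the shares were 53.1% and 54.0% on 2L, 47.6% and 47.2% on 3L, and 44.4% and 44.1% on 3R. X in replicate 1 thus had a smaller share in long gaps than every reference arm. In replicate 2 it lay above 3L and 3R and below 2L.

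**Figure D1:**
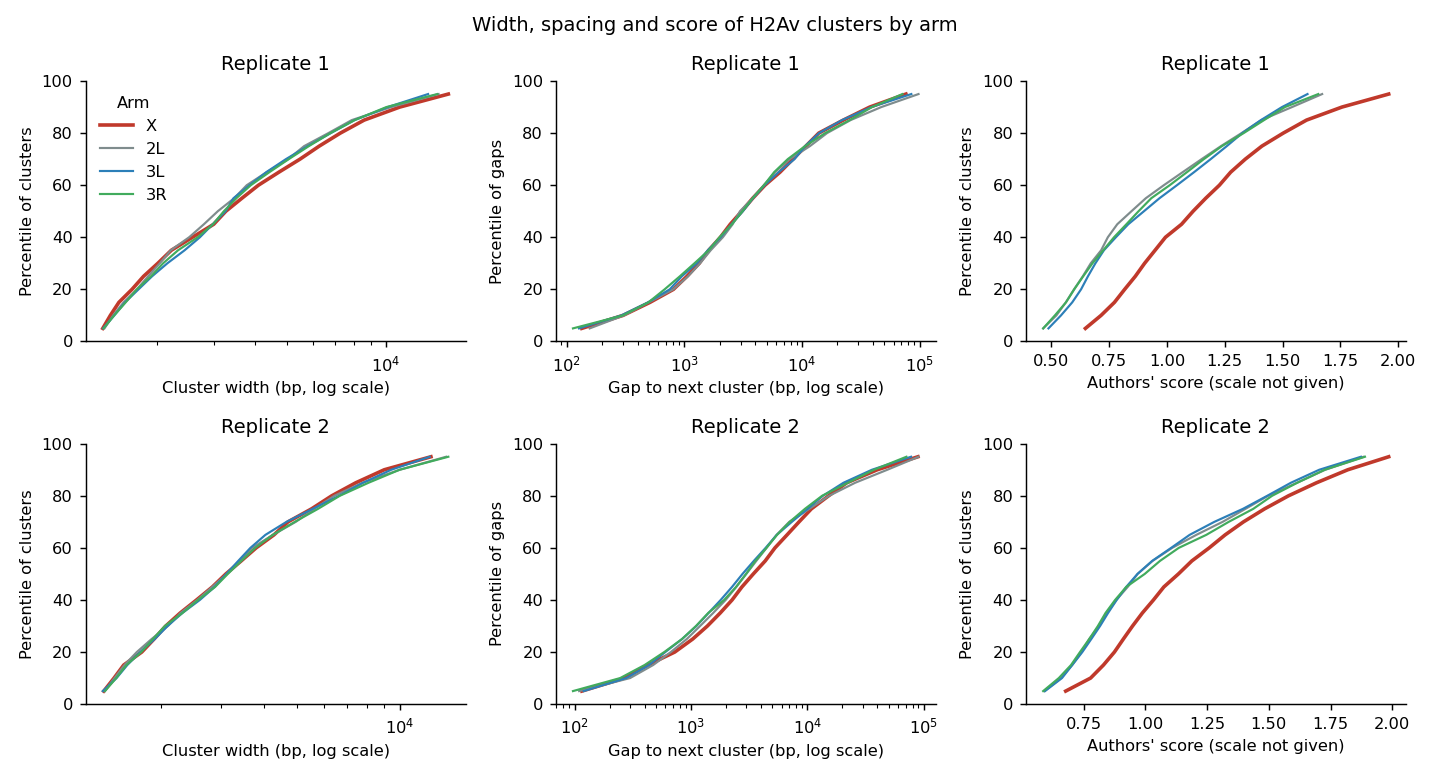
Percentiles (vertical axis) of cluster width in bp, of the gap to the next cluster in bp and of the authors' score, for X, 2L, 3L and 3R in each replicate list; widths and gaps are on log axes. The curves of width and gap nearly overlie one another, while the score curve of X lies to the right of the 3 others in both replicates (medians 1.11 and 1.13 against 0.881 and 0.977 on the pooled reference arms).

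The authors' score was the measure in which X stood apart from the reference arms in both lists. Each cluster carries 1 score, whose scale the headers do not name, so X and the reference arms are compared within a list. Where scores of the 2 replicates are averaged or set side by side further on, a common scale is assumed. The median on X was 1.11 in replicate 1 and 1.13 in replicate 2, against 0.881 and 0.977 on the reference arms. The difference was 0.232 and 0.156, a mean of 0.194 ± 0.0537 (SD, n = 2), and both values lay above 0 by more than this spread. X was higher than each single arm in both lists: the highest arm median was 0.901 on 3L in replicate 1 and 0.997 on 3R in replicate 2. Both quartiles were shifted as well. The lower quartile was 0.864 and 0.911 on X against 0.647 and 0.775 on the reference arms, and the upper quartile was 1.41 and 1.48 against 1.25 and 1.41. The lowest score called on X was 0.423 in replicate 1 and 0.320 in replicate 2, and on the reference arms it was 0.154 and 0.209. By arm, the lowest in replicate 2 was 0.369 on 3L and 0.312 on 3R, so X was not above every arm at this end. Among the upper 50% of each list by score, a selection on the score itself, the difference of medians was 0.0300 in replicate 1 and -0.0597 in replicate 2. The direction thus turned in replicate 2 under that selection.

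High-scoring clusters were more frequent on X than on the reference arms. In replicate 1, 148 X clusters (14.2%) fell in the upper 10% of the list by score, a share that is 10.0% over all clusters by construction. In replicate 2 there were 128 (12.6%, again with 10.0% over all clusters). On the reference arms the shares were 5.60% and 9.40%. Scores above 2 were reached by 45 X clusters in replicate 1 and 46 in replicate 2, which is 4.32% and 4.51%. Over all clusters of these lists 2.48% and 2.77% were above 2, and on the reference arms 0.609% and 2.05%. X so held 26.8% and 24.9% of all clusters above that mark, although it had 15.4% and 15.3% of the clusters. Clusters above 2 numbered 168 in the whole replicate 1 list and 185 in that of replicate 2. The reference arms held 20 and 71 of them. The others lay in parts of the lists not described here, so a high share is not shown to be particular to X.

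Score rises with width on X, with a Spearman rho of 0.73 across 1041 clusters in replicate 1 and 0.75 across 1019 in replicate 2, so clusters of like width were compared. In each of the 5 width classes the X median was above that of every reference arm in both replicates. Among clusters of up to 2000 bp it was 0.801 against 0.580 in replicate 1 and 0.863 against 0.713 in replicate 2. Between 3 and 5 kb the medians were 1.19 against 1.09 and 1.28 against 1.22. Between 5 and 10 kb they were 1.34 against 1.25 and 1.53 against 1.40. The difference was smallest between 5 and 10 kb in replicate 1 and between 3 and 5 kb in replicate 2. Clusters over 10 kb were again further apart, at 1.61 against 1.34 and 1.73 against 1.52. Weighted by the number of X clusters per class, the difference at like width was 0.173 in replicate 1 and 0.125 in replicate 2 (0.149 ± 0.0342). In the upper 50% by score it was 0.0511 and 0.0233, and in the combined list 0.101. There X exceeded every reference arm in 3 classes, but not between 3 and 5 kb (0.967 against 0.982 pooled) or between 5 and 10 kb (1.19 against 1.17 pooled).

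**Figure D2:**
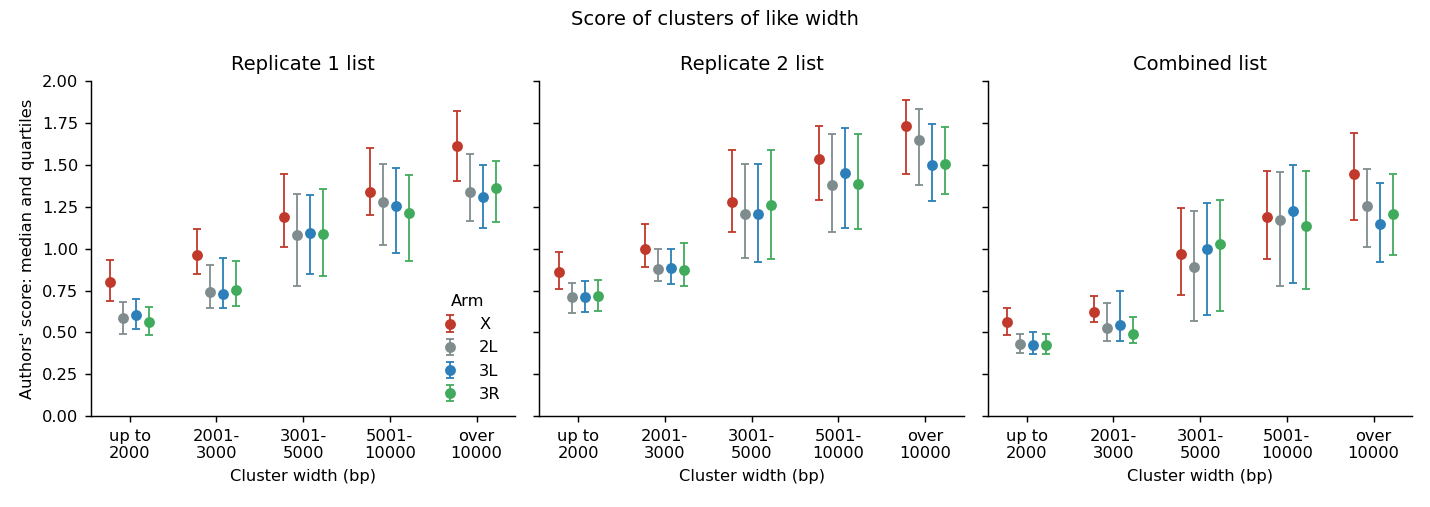
Median score, with bars from the lower to the upper quartile of clusters, for 5 classes of cluster width in bp on X, 2L, 3L and 3R, in the lists of replicate 1, replicate 2 and the replicate set. X has the highest median of the 4 arms in every class of both replicate lists; in the combined list it does not in the classes between 3 and 10 kb.

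The higher scores were spread along the whole of X. In windows of 1 Mb, each of the 20 windows of X had a median score above the median of the 68 reference windows, and this held in all 3 lists. In replicate 1 the X windows ranged from 0.900 to 1.22 around a median of 1.12, and the reference windows from 0.663 to 1.16 around 0.878. The corresponding ranges in replicate 2 were 0.998 to 1.28 (median 1.14) and 0.821 to 1.31 (median 0.974). Of the X windows 7 were above the highest reference window in replicate 1 and none was in replicate 2. The rho between coverage and median score of the 20 windows, which share their libraries, was 0.29 and 0.27 on X. It was 0.11 and 0.09 over 40 windows of 0.5 Mb, and 0.64 and -0.13 over 10 windows of 2 Mb, so no steady relation was seen.

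Coverage by window followed 1 profile in both replicates. The rho between them was 0.94 and Pearson's r 0.96 across the 20 windows, which come from the same 2 libraries. At this window size the rho was higher on each reference arm, at 0.981 on 2L, 0.983 on 3L and 0.966 on 3R. The most covered window ran from 16000001 to 17000000, at 45.2% in replicate 1 and 36.1% in replicate 2 (40.7 ± 6.40%). Next to it on the distal side, 15000001 to 16000000 was covered to 38.3 ± 4.31%, and on the proximal side 17000001 to 18000000 to 31.4 ± 5.71%. These 3 neighbouring windows were among the 5 highest, together with 11000001 to 12000000 (33.5 ± 3.74%) and 19000001 to 20000000 (31.5 ± 5.04%). The rise between 15 and 18 Mb went with many clusters: the 3 windows held 79, 69 and 70 in replicate 1, against 31 to 65 in the other windows. Coverage did not follow number alone, since the most covered window held 69, the fewest of the 3.

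The 5 least covered windows were 14000001 to 15000000 (13.4 ± 3.13%), 12000001 to 13000000 (14.1 ± 3.35%), 4000001 to 5000000 (14.7 ± 1.66%), 7000001 to 8000000 (15.1 ± 1.92%) and 3000001 to 4000000 (15.6 ± 1.16%). The last and the third of these are neighbours, while the others stand apart. The lowest of all, at 14 Mb, lies directly beside the rise that starts at 15 Mb. Across the 19 pairs of neighbouring windows the rho of coverage was -0.19, so adjacent windows were not alike at this scale. X windows were less extreme at the low end than those of the reference arms. Their mean coverage ran from 13.4% to 40.7%, and on the reference arms from 3.27% to 45.5%.

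In 4 equal segments of 5.11 Mb, counted from the telomere, coverage was 20.2 ± 1.00%, 23.1 ± 3.02%, 21.8 ± 3.88% and 32.8 ± 4.68%. The segment nearest the centromere, from 15317121 to 20422827, stood above the other 3 in each replicate. It also had the most clusters per Mb, 64.1 ± 2.08, against 44.3 to 48.6 elsewhere. Median width there (3306.5 ± 134 bp) and median score (1.14 ± 0.0154) were close to those of the segment before it (3167 ± 14.5 bp and 1.14 ± 0.0279). Its higher coverage therefore went mainly with more clusters per Mb.

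**Figure D3:**
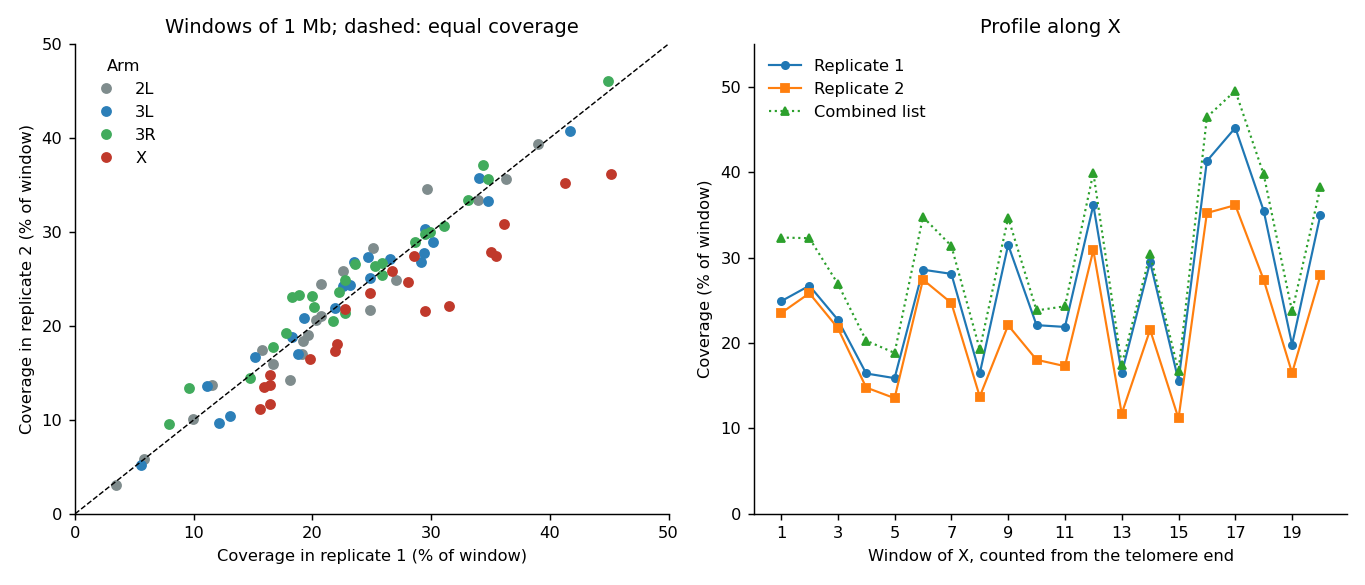
Left, percent of each 1 Mb window inside clusters in replicate 1 (horizontal) and replicate 2 (vertical) for X, 2L, 3L and 3R, with a dashed line of equal coverage; all 20 X windows lie below the line. Right, percent of each X window covered in the 2 replicates and the combined list, with windows counted from the telomere end; windows 16 to 18 form the highest stretch.

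The replicates differed more in how much of X was enriched than in how much of the reference arms was. In replicate 2 the covered length of X was 0.833 times that in replicate 1, whereas the ratio was 1.01 on 2L, 1.01 on 3L and 1.05 on 3R. Both lists shared 4.03 Mb of X, which is 67.5% of the length called in either and compares with 69.7% on the reference arms. The shared part made up 88.6% of the X length called in replicate 2 and 73.9% of that called in replicate 1. On the reference arms these shares were nearly even, at 81.1% and 83.2%. The X clusters of replicate 2 thus lay mostly inside those of replicate 1, with 1.42 Mb called in replicate 1 alone and 0.516 Mb in replicate 2 alone.

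Counted as clusters, 760 of the 1041 X clusters of replicate 1 (73.0%) touched a cluster of replicate 2 by at least 1 bp, where 76.2% of all clusters of that list did. In the other direction 895 of 1019 (87.8%) touched, against 81.4% of all clusters of replicate 2. On the reference arms the shares were 82.2% and 78.9%. X was therefore below the reference arms in the first direction and above them in the second. The 281 X clusters found in replicate 1 alone were narrow, with a median of 1669 bp, and scored 0.887. The touching ones were 4455 bp wide at the median and scored 1.23. For the 124 unshared X clusters of replicate 2 the median width was 1512.5 bp and the median score 0.948.

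Most of the X length called in replicate 1 alone did not lie in separate clusters. Parts of clusters that also touched replicate 2 made up 0.885 Mb (62.1%) of it, and unshared clusters 0.539 Mb (37.9%). The share in parts of touching clusters was 59.3% on the pooled reference arms and 62.8% on 3L, so X was near them in this. By width, the matched replicate 2 cluster was the narrower one in 489 of the 760 X pairs (64.3%), against 41.7% of 2698 pairs on the reference arms. The median ratio of widths, replicate 2 to replicate 1, was 0.905 on X and 1.04 on the reference arms. More X clusters of replicate 1 were divided into several in replicate 2 (152, or 14.6%) than the reverse (83, or 8.15%). On the reference arms the shares were 13.5% and 12.4%.

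Scores of matched clusters differed between X and the reference arms in the same direction as widths, with replicate 2 relatively lower on X. On the reference arms replicate 2 had the higher score in 79.6% of pairs, with a median difference of 0.207. On X it was higher in 420 of 760 pairs (55.3%), with a median difference of 0.0377. The replicate 2 cluster of an X pair was thus more often the narrower one, yet more often the higher in score. Across the 760 X pairs the scores correlated with a rho of 0.68 and the widths with a rho of 0.72.

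The lower coverage of replicate 2 ran along all of X but was not even. All 20 windows were less covered in replicate 2, against 24 of the 68 reference windows. The ratio of replicate 2 to replicate 1 was between 0.835 and 0.967 in the first 8 windows from the telomere and between 0.701 and 0.854 in the other 12, a division made after the values were seen. When X was divided in the middle, it was 0.877 on the telomere side and 0.801 on the centromere side. The same order was found on the other arms, with 1.05 and 0.945 on 2L, 1.05 and 0.963 on 3L, and 1.10 and 1.01 on 3R. A decline from telomere to centromere was thus common to the 4 arms, and X lay at a lower level throughout. Counted from the telomere, the X ratio was below that of every reference arm at 17 of 20 window positions, the exceptions being windows 6, 12 and 19. The lists hold no depth or input values to set beside this ratio.

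**Figure D4:**
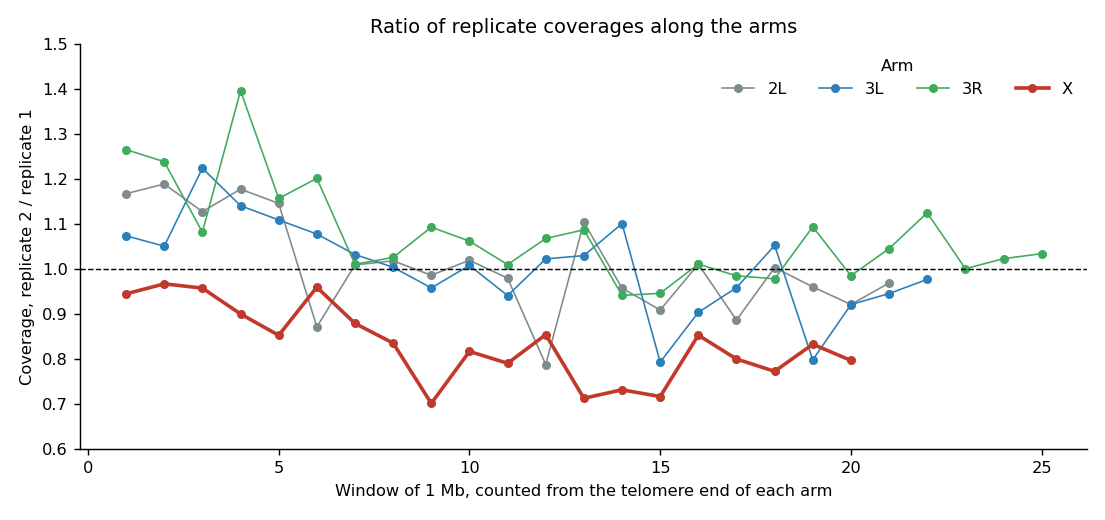
Coverage in replicate 2 divided by coverage in replicate 1 for each 1 Mb window, counted from the telomere end of X, 2L, 3L and 3R; the dashed line marks equal coverage. The X line runs between 0.701 and 0.967 and never reaches 1, and all 4 lines are higher near the telomere than further in.

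The 10 matched X clusters with the highest mean score of both replicates ranged from 4.75 to 13.5 kb in mean width, and none was among the 10 widest. The highest, X from 2612818 to 2623138, had scores of 2.47 and 2.80 in replicates 1 and 2. It had rank 40 in the whole replicate 1 list and rank 4 in the whole replicate 2 list. In the combined list it widened from 10.3 kb to 16.6 kb and scored 2.37. The next was X from 9125132 to 9131617, with 2.55 and 2.38. The third, from 13503044 to 13508396, had 2.25 and 2.62. Both replicates drew these clusters alike: the shared bases were 84.3% to 100% of the replicate 1 width over the 10. Replicate 1 had the higher score in 5 of them and replicate 2 in 5, so the difference between lists had no common direction here.

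The remaining clusters of high score were spread from one end of X to the other. The cluster nearest the telomere was X from 1261163 to 1265975 (2.12 and 2.32). It was followed along the arm by 6255230 to 6261276 (2.35 and 2.15), 10745723 to 10752849 (2.39 and 2.17) and 15221425 to 15229418 (2.37 and 2.08). The most proximal ones were 16196365 to 16204840 (2.48 and 2.10), 17742976 to 17756263 (2.22 and 2.37) and 20282806 to 20292704 (2.33 and 2.48). The last of these had a neighbour only 271 bp further on in replicate 1 and 620 bp in replicate 2, but none for 16.0 kb and 17.1 kb on its telomere side.

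The 10 widest matched clusters showed the difference in width between the lists. All 10 were wider in replicate 1, and their mean scores ran from 1.60 to 1.90. The same count was not made on the reference arms. There too the widest cluster was wider in replicate 1: 42156 against 34720 bp on 2L, 48259 against 41341 bp on 3L and 57059 against 44642 bp on 3R. Wider top clusters in replicate 1 are thus not shown to be particular to X. The widest by mean, X from 20053069 to 20092276, was 39.2 kb in replicate 1, 25.1 kb in replicate 2 and 49.0 kb in the combined list. X from 9079598 to 9123006 measured 43.4 kb in replicate 1, and its best match in replicate 2 only 19.2 kb. Replicate 2 did not leave the remainder uncalled: 3 of its clusters together filled 89.7% of that span. The cluster from 11877540 to 11918250 (40.7 kb) was likewise met by 5 clusters of replicate 2 that filled 88.6% of it. At 16693123 to 16731405 (38.3 kb) there were 6, filling 92.0%.

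Over the other widest clusters the share filled by replicate 2 lay between 72.2% and 96.6%. The lowest was at 16767856 to 16801040, where 4 clusters of replicate 2 covered 24.0 kb of 33.2 kb. The 32.4 kb cluster from 4513077 to 4545510 was the only one of the 10 in the 5.11 Mb nearest the telomere, and 3 clusters of replicate 2 filled 96.6% of it. A single replicate 2 cluster filled 94.7% of the span from 16291961 to 16317498 (25.5 kb and 24.2 kb). Over all 128 X clusters above 10 kb in replicate 1, each touched replicate 2, and 78 (60.9%) met several of its clusters. On the reference arms 42.9% of 340 did. The median share filled by replicate 2 was 91.6% on X and 97.0% on the reference arms. In the other direction 17 of the 81 broad X clusters of replicate 2 (21.0%) met several clusters of replicate 1, against 37.2% of 331 on the reference arms.

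**Figure D5:**
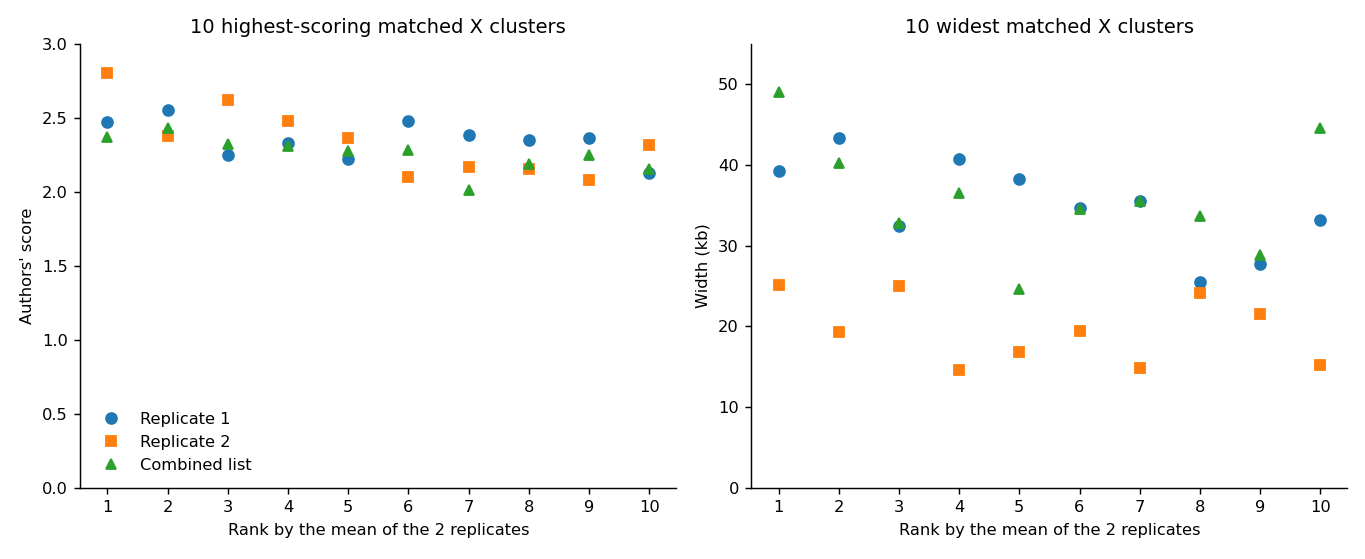
Left, the authors' score of the 10 highest-scoring matched X clusters in replicate 1, replicate 2 and the combined list; right, the width in kb of the 10 widest. Scores of the replicates cross from cluster to cluster, while all 10 widest clusters are wider in replicate 1 than in replicate 2.

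Some clusters of high score were found in 1 list alone. The highest of replicate 1, X from 8188898 to 8190370, was 1473 bp wide and scored 3.33, the highest score on X in either replicate list. The nearest cluster of replicate 2 lay 19.6 kb away, and the combined list had none there. The second, from 1851700 to 1853764, scored 2.97 in replicate 1 and overlapped a combined cluster that scored only 1.12. The third, from 5474017 to 5475351 (2.23), was also missing from the combined list. The next, at 13894102 (1.95) and 19723722 (1.69), were in it. In replicate 2 the highest unshared X cluster, from 947271 to 948759, scored 1.48, and the other 4 of the first 5 were between 1.33 and 1.43. They began at 18489951, 16605268, 11949021 and 18641086, and of the 5 the combined list held the one at 16605268 alone. On a common scale, the highest scores outside the shared set would be those of replicate 1.

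Between clusters, X had 33 stretches over 100 kb without a call in either replicate. They made up 24.8% of the kept length, against 31.8% on 2L, 28.8% on 3L and 26.1% on 3R. The longest ran from 11950421 to 12329226 (379 kb), followed by 7237781 to 7570992 (333 kb), 2685146 to 2972439 (287 kb) and 3070451 to 3313080 (243 kb). Then came 18794472 to 19001394 (207 kb), 4603269 to 4798607 (195 kb) and 4994704 to 5182915 (188 kb). The last 3 of the 10 longest were 7008096 to 7171039 (163 kb), 6268682 to 6416463 (148 kb) and 13741648 to 13889089 (147 kb). Of the 10, 7 began in the first 8 Mb of the 20.4 Mb kept, a mark set after the values were seen. The combined list had no cluster in 4 of them and at most 3 in any, over at most 2442 bp. A stretch without a call is not shown to lack H2Av, and gaps in the assembly were not examined.

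The combined list covered 30.3% of X, more than either replicate, and 26.7% of the reference arms. Of its 1194 X clusters, 233 (19.5%) touched no cluster of either replicate, where 15.9% of all clusters of that list and 14.8% on the reference arms did not. These 233 were narrow, with a median of 1193 bp against 3755 bp for the other X clusters, and low in score (0.587 against 0.837). A further 231 touched replicate 1 alone and 83 replicate 2 alone, while 647 touched both. In that list the median gap on X was 2381 bp and the median width 2856 bp, both below the 2487 bp and 2997 bp of the reference arms. Clusters of up to 2000 bp were 36.9% of its X clusters and those over 10 kb 12.9%, near the 36.8% and 13.2% of the whole list. Its median score on X was 0.724 against 0.598, so the higher score of X was also found there.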

How the data were processed

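Measurements were 3 lists of enriched regions from 2 H2Av ChIP libraries of fly heads, 1 per replicate and 1 combined. Alignment was with Bowtie 0.12.7 (submitters' processing notes). Per the file headers, the build is FlyBase release 5. How clusters were called and replicates combined is not given in the sources used here. The score per cluster is as deposited, on a scale that the headers do not name. Depth is unknown, so counting intervals cannot be given.

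Lists were read with pandas 2.3.3 (Python 3.11.15, numpy 2.4.6, scipy 1.17.1). Kept parts leave out 2 Mb at the centromere end, which is the low-coordinate end on 3R. Coverage is clipped to the kept part. Gaps are counted between clusters after joining ones that abut or overlap. A matched cluster is the replicate 2 cluster sharing most bases with a replicate 1 cluster. Windows of 1 Mb start at the telomere, and the incomplete last one was left out. Values are the mean and SD of 2 lists. Named regions are the 10 highest-scoring and 10 widest matched clusters, the 10 longest stretches without a call, the 5 most and 5 least covered windows and the 5 highest unshared clusters per replicate. Coverage, overlap, window and score measures were tested on simulated lists with known answers.

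Members and measures were chosen with earlier results of these data known. No sequence is shown, because a genome of release 5 was not used here.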

Additional observations from a re-analysis of the deposited data

How the results depend on the processing

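A value was read as moved where an alternative shifted it by more than the SD of the 2 replicates, or, for single values made from both lists, the SD of the 3 reference arms. Of 72 values under other settings 43 stayed within that spread. Direction turned in 11 of the 72, and some of these 11 are among the 43. Leaving out 1 of 2 replicates cannot shift a mean beyond their SD, so it is given as a range and not counted, and 3 more values turned there. The score difference at like width and the ratio of replicate coverages kept their direction in every alternative run for them. The difference of median scores did so except in the upper 50% by score, added after seeing the data, where it was -0.0149, with 0.0372 at like width and a gap difference of -762.5 bp. With the combined list, X coverage was 30.3%, the score difference 0.125 and at like width 0.101, the upper share by score 11.1% and the rho of score and width 0.711, while the differences of median width (-141 bp) and gap (-106 bp) reversed. Taking 1 replicate at a time gave a coverage ratio from 0.963 to 1.19, a width difference from -21 to 61 bp and a gap difference from -16.5 to 540.5 bp. With whole arms the coverage ratio was 0.995, the ratio of clusters per Mb 0.981, the width difference -21.25 bp, the shared length 66.9% and the window rho 0.947. In the upper 50% by score, X coverage was 20.3%, the coverage ratio 1.30, the ratio of clusters per Mb 1.44, the width difference -669 bp, the shared length 64.6% and the replicate ratio 0.803. Against 2L alone the ratio of clusters per Mb was 1.13 and the width difference 78.75 bp. Against 3R alone that ratio was 0.994, and against 3L alone the width difference was -2 bp. Joining clusters under 1000 bp apart gave a width difference of -1.5 bp. With clusters of at least 2000 bp it was 265.75 bp, and the upper share by score was 15.2%. By number instead of length, 73.0% of replicate 1 clusters touched, and 62.2% with at least 50% of their length. The window rho was 0.962 for 0.5 Mb and 0.745 for 2 Mb windows. Added after seeing the data, the replicate ratio was 0.877 on the telomere side of the middle of X and 0.801 on the centromere side, and 0.881 among clusters that touch the other list. For none of these shifts was the cause tested. No paired analysis was possible because inputs, which share the replicate numbers with ChIP, hold no list. Arms were paired within each list, as in the sign-flip permutation.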

Other observations

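The X cluster with the highest mean score lies within 100 kb of one of the longest uncalled stretches. The cluster ends at 2623138 in replicate 1, and 62007 bp further on begins the stretch of 287 kb from 2685146. Another high-scoring cluster, from 6255230 to 6261276, lies nearer to such a stretch, the one that begins at 6268682. How often X clusters lie so near a long stretch was not counted. In the first 8 Mb of the 20.4 Mb kept, a mark set after the values were seen, 7 of the 10 longest uncalled stretches begin. There the mean coverage over the 8 windows was 22.5% in replicate 1 and 20.6% in replicate 2. In the 12 windows beyond it was 29.2% and 23.0%.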
